A study of Mus musculus with 2 samples.

Results

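The enzymes that make leukotrienes and prostaglandins were examined in bone marrow neutrophils of mice labelled Jdp2 KO and of mice labelled Jdp2 WT. The 10 genes were listed by name, and all probe sets annotated to them were read on both arrays. Of these, 9 genes had a probe set, 14 probe sets in all, out of 18193 named genes. No probe set was paired with Ptgs1 in the annotation used here, so this gene, which encodes the constitutive cyclooxygenase, was not analysed here. The cells had been sorted as CD11b+ and Ly6G+ with low Ly6C, both groups had a mixed C57BL/6 /129/J background, and biotin-labelled total RNA was read on Affymetrix arrays. Jdp2 is a leucine-zipper protein that binds AP-1 and CRE sites and is known mainly as a repressor, and the mice labelled Jdp2 KO are named for the loss of this gene. There was 1 array per genotype and no replicate, so no difference has a p-value. The age and number of mice behind an array, and the part of Jdp2 that was removed, were not given in the sources used here.

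Eicosanoids are lipid mediators made from arachidonic acid, which cytosolic phospholipase A2 frees from membranes. In the leukotriene branch, 5-lipoxygenase and its helper protein FLAP make leukotriene A4. Leukotriene A4 hydrolase turns this into leukotriene B4, a strong attractant of neutrophils, while leukotriene C4 synthase adds glutathione. In the prostaglandin branch, cyclooxygenases make prostaglandin H2, from which separate synthases make prostaglandin E2 or D2. Neutrophils are known as a main source of leukotriene B4.

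Because Jdp2 binds DNA, the start regions of the enzyme genes were searched for the letters of its known sites. RefSeq windows of GRCm38.p6, 280 bases long with 250 before and 30 after the annotated start, were found for 8 of the 10 genes, all but Alox5ap and Alox15, 9 windows in all. No window held the AP-1 letters TGANTCA, which 7.46% of all 32851 such windows held, or the full CRE letters TGACGTCA, which 1.74% held. The shorter CRE letters TGACG or their reverse complement CGTCA, which also lie inside the full CRE and were counted on both strands, were in 1 window, that of Ptgs2, and in 19.9% of all windows. A match is a match of letters only, and its absence says only that they are not in these windows. Of the 9 windows, 5 began at the outermost annotated start of their gene, and the others, that of Hpgds among them, at a start inside it. The windows of Ptgs2 and Lta4h, both at the outermost start, are shown 5′ to 3′. Ptgs2, at chr1:150099781-150100060 on the plus strand, has its match in capitals, beginning at base 14 with the annotated start as base 1. Lta4h, at chr10:93453146-93453425 on the plus strand, is shown because it had the lowest difference among the enzyme genes by its strongest probe set, and it holds no match.
Ptgs2: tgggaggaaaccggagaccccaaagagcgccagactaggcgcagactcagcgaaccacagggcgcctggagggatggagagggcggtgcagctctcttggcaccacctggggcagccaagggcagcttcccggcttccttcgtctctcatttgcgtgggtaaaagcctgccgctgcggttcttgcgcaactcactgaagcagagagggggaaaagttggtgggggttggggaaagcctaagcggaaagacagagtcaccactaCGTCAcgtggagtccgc
Lta4h: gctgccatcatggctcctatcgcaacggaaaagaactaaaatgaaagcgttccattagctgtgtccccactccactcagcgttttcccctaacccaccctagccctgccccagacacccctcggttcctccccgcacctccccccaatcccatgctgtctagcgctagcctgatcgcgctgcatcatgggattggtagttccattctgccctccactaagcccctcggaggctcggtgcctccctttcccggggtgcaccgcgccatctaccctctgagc

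The 2 arrays were alike in overall signal, with medians of 5.67 (KO) and 5.65 (WT) on the log2 scale over 45037 probe sets. Neutrophil markers were at the top of the scale on both arrays, with Camp at 14.51 and 14.54 and S100a9 at 14.46 and 14.37. The 10 neutrophil markers with a probe set had a median difference of -0.06, but 7 of them lay within 1 log2 unit of the highest value of both arrays (14.56 and 14.54), where differences can be compressed. The stronger probe set of Jdp2 read 12.38 on the array labelled KO and 12.00 on the array labelled WT, and the weaker one read 5.40 and 5.24. The targeted gene was thus not lower on the array labelled KO. The place of these probes relative to the deletion is not known, so the labels are not checked by it and every direction refers to the arrays as labelled. Differences are KO minus WT on the log2 scale, and the probe set with the highest mean signal stands for a gene. Probe sets differ in how strongly they bind, so a value is compared between arrays and never between genes.

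Most of the enzyme genes had similar signals on both arrays, and by their strongest probe sets those of the leukotriene B4 route were lower by less than 1.5-fold on the array labelled KO or nearly equal. A second probe set of Lta4h was 2.81-fold lower, and Hpgds, at weak signal, was higher. Genes whose higher value lay at or above the median of that array were kept, a level filter that 7 of the 9 measured enzyme genes passed. Of these 7, 1 was at least 2-fold higher (Hpgds) and 0 were at least 2-fold lower, beside 3.06% and 2.33% of all 11168 genes that passed. Their median difference was -0.23, with 3 above and 4 below 0, while that of all genes that passed was -0.04, with 55.1% below 0. Hpgds passed through its KO value alone, so it had to differ, and its count supports nothing. Over all 14 probe sets of the 9 genes, 8 were lower and 6 higher on the array labelled KO. Of the 14, 12 differed by less than 0.5. Counted by gene, 1 of the 7 enzyme genes that passed differed by 0.5 or more, beside 2464 of all 11168. Similar signals were thus common among all genes and not particular to these enzymes.

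**Figure D1:**
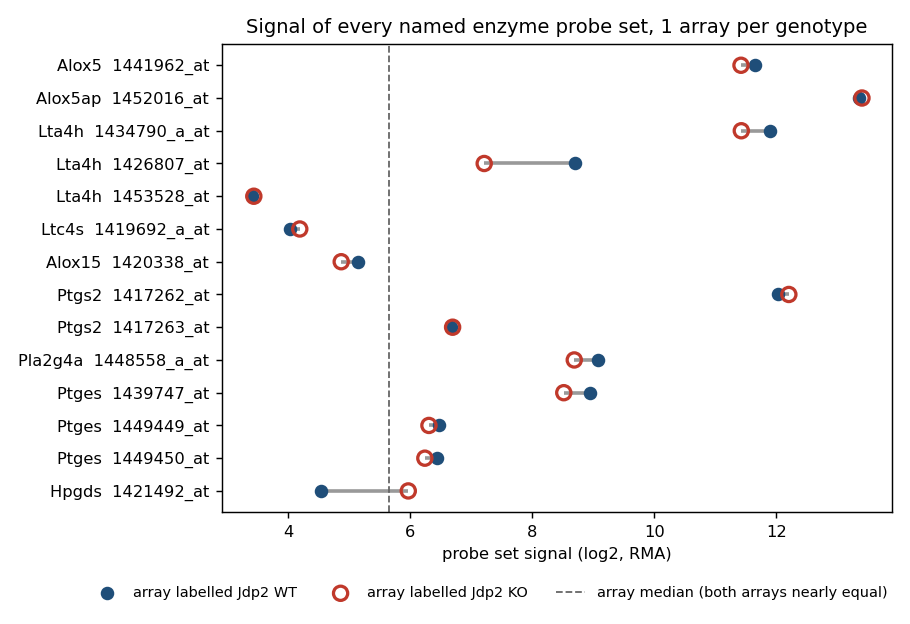
Signal (log2, RMA) of all 14 probe sets of the 9 measured enzyme genes, with filled blue points for the array labelled Jdp2 WT, open red circles for the array labelled Jdp2 KO and the array median as a dashed line. Most pairs lie close together, while the Lta4h probe set 1426807_at (7.21 and 8.70) and the Hpgds probe set (5.97 and 4.54) are far apart.

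The leukotriene route begins with Pla2g4a, the gene for cytosolic phospholipase A2, which releases arachidonate. Its probe set (1448558_a_at) read 8.69 on the array labelled KO and 9.08 on the array labelled WT, a difference of -0.39. Alox5, encoding 5-lipoxygenase, read 11.42 and 11.65, a difference of -0.23 (1441962_at). Alox5ap, encoding FLAP, which presents arachidonate to 5-lipoxygenase, read 13.41 and 13.37, a difference of 0.04 (1452016_at). Its signal lay at percentile 99.6 of all probe sets on each array, near the top of the scale, where the same limit holds. Pla2g4a and Alox5 were thus lower by less than 1.5-fold on the array labelled KO, and Alox5ap was nearly level.

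Lta4h encodes leukotriene A4 hydrolase, which makes leukotriene B4. Its strongest probe set (1434790_a_at) read 11.43 on the array labelled KO and 11.90 on the array labelled WT, a 1.39-fold lower signal (difference -0.47). A second probe set (1426807_at) read 7.21 and 8.70, a 2.81-fold lower signal (difference -1.49). The third (1453528_at) read 3.43 and 3.41, below the array median on both arrays, with a difference of 0.03. Both probe sets above the median therefore pointed the same way, but differed in size. The SD of the difference over these 2 probe sets was 0.72, while its median over 4867 genes with several passing probe sets was 0.22. This SD measures probe sets on shared RNA and not mice, and the part of the transcript each probe set reads was not used here.

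The other lipoxygenase products rest on genes with weak probe sets. Ltc4s, encoding leukotriene C4 synthase, read 4.19 on the array labelled KO and 4.03 on the array labelled WT, at percentiles 23.2 and 20.6 of all probe sets. Alox15, encoding a lipoxygenase of eosinophils and macrophages, read 4.87 and 5.14, at percentiles 35.8 and 41.1. Both lay below the array median on both arrays, where RMA values hold mostly background, so their differences of 0.16 and -0.28 give no direction.

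Ptgs2, encoding the inducible cyclooxygenase, had high signal on both arrays. Its stronger probe set (1417262_at) read 12.21 on the array labelled KO and 12.04 on the array labelled WT, a difference of 0.17, at percentiles 97.7 and 97.3. The weaker (1417263_at) read 6.69 and 6.67, a difference of 0.02. Ptges, encoding the inducible membrane synthase of prostaglandin E2, was lower on the array labelled KO in all 3 of its probe sets. The strongest (1439747_at) read 8.52 and 8.94, a difference of -0.43, and the others differed by -0.16 (1449449_at, 6.30 and 6.47) and -0.20 (1449450_at, 6.24 and 6.44). Both differences of Ptgs2 lay below 0.22, the median SD between probe sets of a gene, as did those of the weaker Ptges probe sets in size. That SD does not measure mice and sets no limit for a direction. The spread between mice is not known, so neither gene has a direction beyond these arrays. Ptges was lower by less than 1.5-fold.

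Hpgds, encoding the haematopoietic prostaglandin D2 synthase, known from mast cells, macrophages and megakaryocytes, read 5.97 on the array labelled KO and 4.54 on the array labelled WT (1421492_at). The WT value lay at percentile 29.995 of its array, where RMA values hold mostly background, and the KO value at percentile 54.7. The difference of 1.43, or 2.69-fold, therefore rests on a weak WT value, and with that value raised to its array median it came to 1.24-fold. It was at least 2-fold with the arrays centred, quantile normalised or freed of a loess trend.

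**Figure D2:**
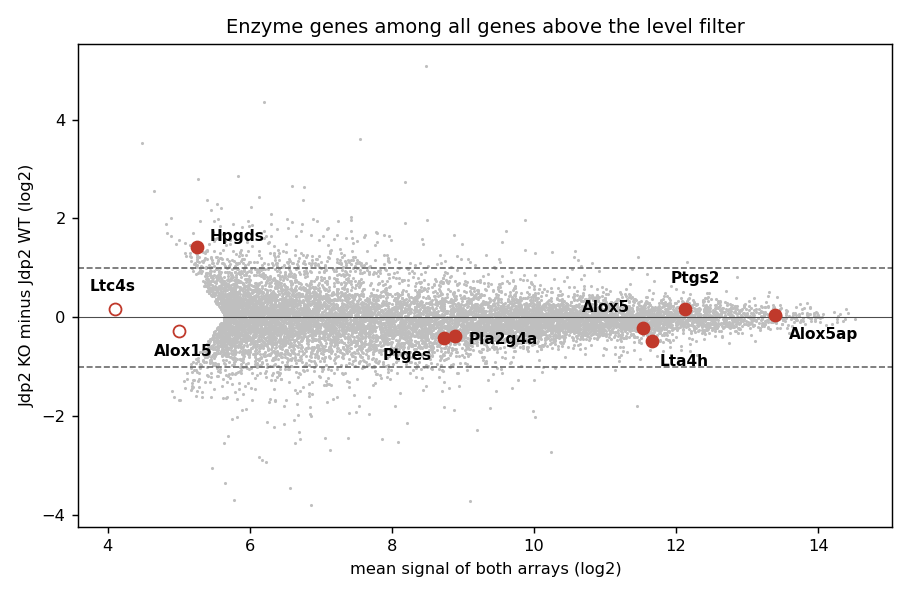
Difference (KO minus WT, log2) against the mean signal of both arrays (log2) for all 11168 genes that passed the level filter (grey), with the 7 enzyme genes that passed as filled points, Ltc4s and Alox15, which did not, as open circles, and 2-fold as dashed lines. Of the enzyme genes, Hpgds alone lies outside the dashed lines, at weak signal where the grey cloud is wide.

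Markers of some other cell types, but not of all, were also higher on the array labelled KO. Of all 11168 genes that passed, 3.06% were at least 2-fold higher, the share to set beside the counts of passing markers. Of 6 passing T and NK cell markers, 4 were above 0 and 0 were at least 2-fold higher (median 0.28). Of 4 passing B cell markers, 3 were above 0 and 1 was at least 2-fold higher (median 0.48). This 1 gene, Igll1, passed through its KO value alone and so had to be higher. The 2 passing erythroid markers were lower (median -0.20). Of the 14 monocyte and macrophage markers that passed, of 16 listed, 14 were higher on the array labelled KO and 11 were at least 2-fold higher, with a median difference of 1.16. Of these 14, 5 passed through their KO value alone and so had to be higher. Of the 9 with both values at or above the array medians, 7 were at least 2-fold higher, with a median of 1.11. Of all 9907 genes kept by that stricter filter, 184 were at least 2-fold higher. The 15 monocyte and macrophage markers with a probe set had a summed linear signal of 10883 (KO) and 6731 (WT). This sum sets 1 array beside the other and orders no genes. Among those with strong probe sets, Csf1r differed by 0.27, the macrophage adhesion gene Vcam1 by 1.15, Cd68 by 0.23 and Adgre1, which encodes F4/80, by 1.25. Irf8, a factor of monocytes, was the 1 measured marker below the median on both arrays. Of 7 passing megakaryocyte and platelet markers 3 were at least 2-fold higher (median 0.76), led by the platelet chemokine genes Ppbp (1.97) and Pf4 (1.66). The summed linear signal of the 10 with a probe set, passing or not, was 4933 on the array labelled KO and 2959 on the array labelled WT. The integrin genes of this list, Itgb3 (-0.20) and Itga2b (-0.34), lay the other way, and without a level filter the median of the list was 0.33. Of 11 measured eosinophil, basophil and mast cell markers 4 passed, and their median was 0.25. Among these, Hdc read 12.48 on the array labelled KO and 12.64 on the array labelled WT (difference -0.16). Siglecf read 8.73 and 8.30 (difference 0.43). Gata2 differed by 0.07, while a second probe set of it read 4.95 and 6.43 (difference -1.48). The defining mast cell genes Cpa3, Ms4a2 and Fcer1a and the eosinophil granule genes Epx and Prg2 lay below the array median on both arrays, while Ccr3 read 5.90 and 4.76, a difference that came to 1.19-fold with the weak WT value raised to the array median. Primary granule genes, made by promyelocytes, were higher too, 6 of 7 at least 2-fold (median 2.86), with Mpo at 5.09 (11.02 and 5.93). Prtn3 and Ctsg passed through their KO value alone, and the median was 1.05 over the 5 genes with both values at or above the array medians and 1.62 with weak values raised to them. Ctsc, counted as 2-fold higher by its strongest probe set (1.05), was lower in a second one above both medians (7.05 and 7.66, difference -0.61). Ly6G was part of the gate named for this sort, and the purity of the sorted cells was not measured here. The part of other cells in the signal of Hpgds, and in any other difference given here, was not tested. In bulk RNA, fewer cells of a type and less RNA per cell cannot be told apart.

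**Figure D3:**
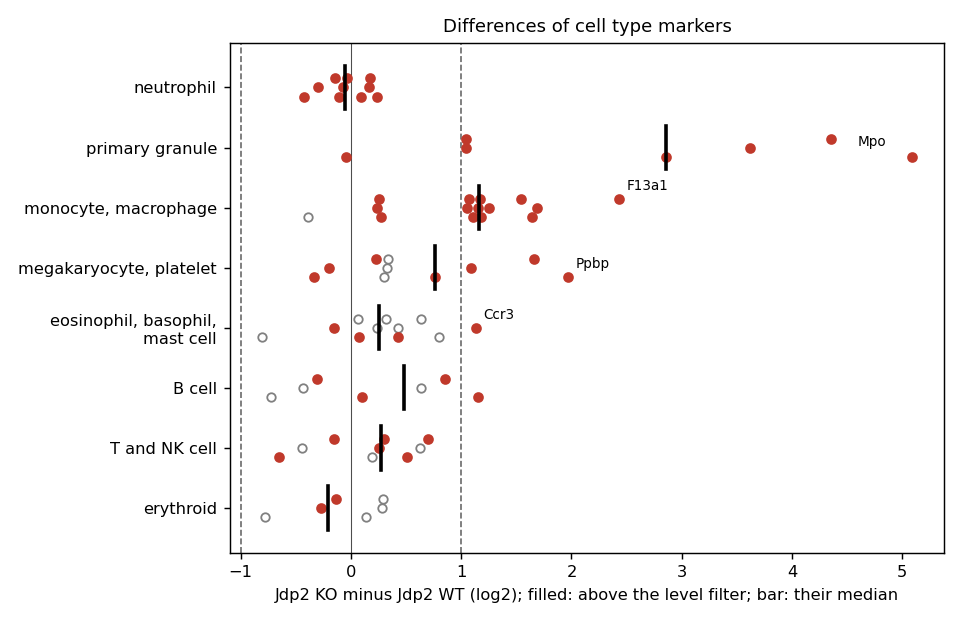
Differences (KO minus WT, log2) of cell type marker genes by list, filled where the gene passed the level filter and open where it did not, with a bar at the median of the passing genes and 2-fold as dashed lines. Neutrophil markers lie around 0 (median -0.06), and monocyte and macrophage markers (1.16) and primary granule genes (2.86, or 1.05 where both values reach the array median) lie to the right.

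Genes around these enzymes were grouped by role, 68 in all, of which 62 had a probe set and 39 passed. Of the 39, 1 was at least 2-fold higher and 0 were at least 2-fold lower, beside the same 3.06% and 2.33% of all genes, and their median difference was -0.09. The 1 higher gene, Cyp4f16, passed through its KO value alone, so it had to be higher and its count supports nothing. Genes that free arachidonate or return it to membranes had a median of 0.13 over 9 passing genes (0.00 over all 15 measured), and 0 passed 2-fold. Lpcat2, an acyltransferase of lysophospholipids, read 12.64 on the array labelled KO and 12.62 on the array labelled WT. A second probe set of Lpcat2 read 8.91 and 9.38, a difference of -0.48. Acsl4, which activates arachidonate for re-esterification, read 10.97 and 11.02. The other probe sets of Acsl4 differed by -0.52 (7.43 and 7.94) and, at weak signal, by -0.44 (5.24 and 5.68). Pla2g7, which breaks down platelet-activating factor, read 11.56 and 11.35, and Daglb, a diacylglycerol lipase, 11.33 and 10.80, the highest difference of this group at 0.53. None of these 4 genes reached 1.5-fold. Mgll had the lowest difference of this group, -0.51 (9.69 on the array labelled KO and 10.20 on the array labelled WT). A second probe set of Mgll read 8.55 and 9.39, 1.79-fold lower (difference -0.84). Its weaker probe sets differed by -0.40 and, below the median on both arrays, by -0.11.

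Of the other lipoxygenase and leukotriene C4 genes 7 passed, with a median of -0.09. Under the alternative settings this median lay between -0.21, with probe sets averaged, and 0.04, without a level filter. Mgst2, a microsomal enzyme that can also make leukotriene C4, read 10.80 on the array labelled KO and 11.61 on the array labelled WT, 1.75-fold lower (difference -0.81). Its relative Mgst1 read 13.10 and 13.06, a difference of 0.04. A second, weak probe set of Mgst1 read 4.58 and 5.80, 2.32-fold lower (difference -1.22). Only its WT value lay above the array median, and with the KO value raised to the median it was 1.09-fold lower. The glutathione peroxidases Gpx1 and Gpx4, which keep lipid peroxides low, differed by -0.09 and -0.20. A second probe set of Gpx4 differed by -0.45. Among 4 passing prostanoid synthases 2 were above and 2 below 0, and their median of -0.23 gives no direction, since it was 0.04 over the 3 with both values at or above the array medians and 0.01 without a level filter. Tbxas1, the thromboxane synthase, read 9.57 and 9.39 (difference 0.18), while Ptges2, another prostaglandin E synthase, read 7.41 and 7.93 (-0.52). Prxl2b differed by 0.04 and Ptgis, the prostacyclin synthase, by -0.50 at weak signal (5.61 and 6.12).

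Of 10 passing genes of breakdown and transport, 4 were above and 6 below 0 (median -0.10). Cyp4f18, the enzyme that hydroxylates leukotriene B4 in mouse neutrophils, read 11.38 on the array labelled KO and 11.57 on the array labelled WT, a difference of -0.20. Its relative Cyp4f16 read 6.45 and 5.40, 2.08-fold higher (difference 1.06), or 1.75-fold with the WT value raised to the array median. A second probe set of Cyp4f16, below the median on both arrays, read 4.74 and 4.56. Ggt5, which cleaves leukotriene C4 to D4, read 10.45 and 9.93 (difference 0.52). Ptgr1, which inactivates leukotriene B4 and prostaglandins, differed by -0.27 and Ptgr2 by -0.01. Hpgd, the dehydrogenase that inactivates prostaglandin E2, chosen after its values were seen, read 6.59 and 5.64 (difference 0.95) in one probe set and 6.38 and 5.73 (0.65) in the other. The first of these, which stands for the gene, passed through its KO value alone, with its WT value just below the array median, so it had to be higher.

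Prostanoid receptors had the lowest median of the 6 groups of related genes. Of 7 passing prostanoid receptor genes, 6 were lower on the array labelled KO and 0 at least 2-fold lower, with a median of -0.71, while 55.1% of all genes lay below 0. Ptger3 passed through its WT value alone and so had to be lower, and Ptgdr passed through its KO value alone. The 5 genes with both values at or above the array medians were all lower, with a median of -0.71. Ptger4 and Ptger2, which encode the prostaglandin E2 receptors EP4 and EP2, read 10.92 against 11.59 (difference -0.68) and 8.55 against 9.26 (-0.71). A second probe set of Ptger4 read 6.66 on the array labelled KO and 7.58 on the array labelled WT, 1.89-fold lower. Ptgir, the prostacyclin receptor gene, read 8.88 and 9.77, 1.86-fold lower. All 4 probe sets of these 3 genes were lower on the array labelled KO.

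Ptger1 (EP1) read 5.90 and 6.90, a difference of -0.998, just short of 2-fold, while its other probe set, below the median, differed by -0.04. The remaining 3, named after their values were seen, were Ptger3 (EP3, -0.74 at weak signal), the thromboxane receptor gene Tbxa2r (-0.34) and Ptgdr, a prostaglandin D2 receptor gene (0.10). A second probe set of Ptger3, below the median on both arrays, differed by 0.07. The median of the group lay between -0.73 and -0.62 under all 8 alternative settings. With the arrays centred Ptger1 passed 2-fold, the 1 lower gene under that setting.

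For the leukotriene side, Ltb4r1, which encodes the high-affinity leukotriene B4 receptor BLT1, read 11.22 on the array labelled KO and 11.63 on the array labelled WT, 1.32-fold lower (difference -0.41). Fpr2, which binds lipoxin A4 and formyl peptides, read 13.86 on both arrays, near the top of the scale, where a difference can be compressed. These 2 were the only genes of the 7 measured leukotriene and lipoxin receptors to pass. The others, among them the cysteinyl leukotriene receptor genes Cysltr1 (5.01 and 4.51) and Cysltr2 (3.32 and 2.96), lay below the median on both arrays.

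**Figure D4:**
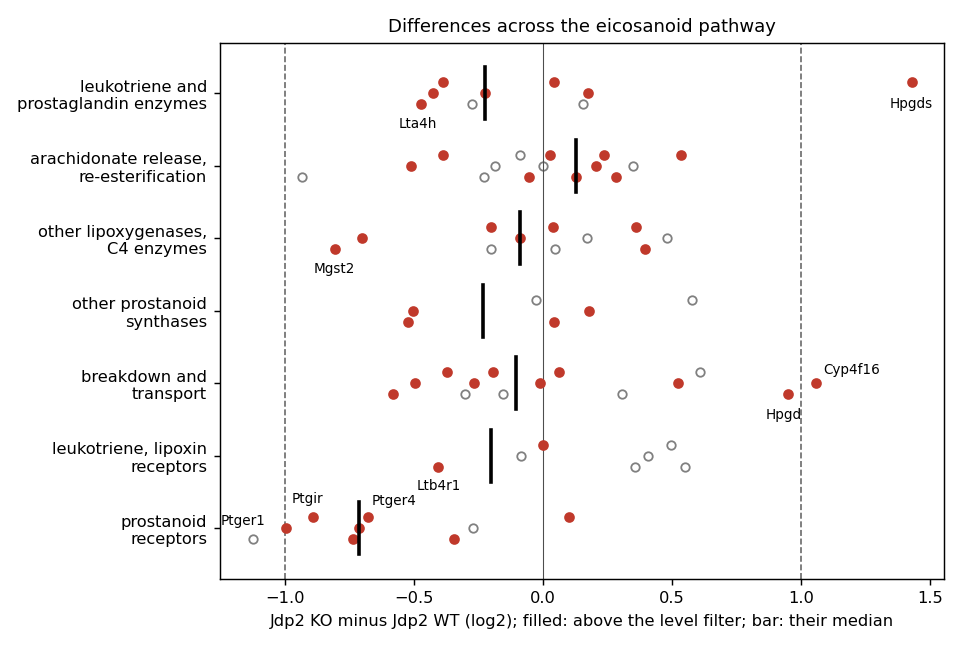
Differences (KO minus WT, log2) of the enzyme genes and of 6 groups of related genes, filled where the gene passed the level filter and open where it did not, with a bar at the median of the passing genes and 2-fold as dashed lines. Prostanoid receptors lie furthest to the left (median -0.71), the enzyme genes have a median of -0.23, and Hpgds (1.43) and Cyp4f16 (1.06) are the passing genes beyond 2-fold.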

How the data were processed

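The authors deposited log2 probe set summaries from RMA (the submitters' processing notes name it, with no version, and its settings were not given in the sources used here). Sorted values of both arrays differed by at most 0.117. RMA gives no detection call, and background in weak signals shrinks their folds. Of 45037 probe sets besides 64 controls, 34945 had 1 symbol, 932 several and 9160 none; symbols were updated by identifier against the GRCm38.p6 gene table (34741 matched, 204 kept the annotation's). The files name no build, so coordinates belong to the RefSeq windows only.

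Genes were counted past a log2 difference of 1 (2-fold). With 1 array a group there is no test, and the number of arrays limits precision. Members and gene lists were chosen with earlier results of these data known. All 10 members were named, with pathway genes past 2-fold and up to 4 passing genes per list of highest mean. Marker lists gave up to 4, passing or not. Jdp2, Irf8, Ccr3, Cpa3, Ms4a2, Fcer1a, Epx, Prg2, Itga2b, Prtn3 and Ctsg were added after values were seen. So were Hpgd, Mgll, Ptger3, Tbxa2r, Ptgdr, Cysltr1, Cysltr2 and marker genes shown for weak signal. B cell (4 passing, median 0.48), T and NK cell (6, 0.28) and erythroid markers (2, -0.20) were checked too. Python 3.11.15, pandas 2.3.3 and statsmodels 0.14.6 were used; counting was tested on simulated data. Alternatives changed the filter, scaling (centring, quantile, loess with span 0.3), probe sets or weak values.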

Additional observations from a re-analysis of the deposited data

How the results depend on the processing

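The median difference of the enzyme genes lay between -0.31 and -0.20 under the 8 alternatives and that of the 68 related genes between -0.23 and -0.04. No enzyme gene was at least 2-fold lower under any of them. The count of enzyme genes at least 2-fold higher, 1, became 0 when both values had to reach the array median and when weak values were raised to it, both of which act on the weak WT value of Hpgds (0.32 when raised). The count of related genes at least 2-fold higher, 1, became 0 under the same 2 settings and when probe sets of a gene were averaged, and the count at least 2-fold lower, 0, became 1 without a level filter (Ptgfr) and with centred arrays (Ptger1). Among the single enzyme genes, Alox15 alone changed sign, at 0.02 when both of its weak values were raised to the medians. No paired analysis was possible because each genotype had 1 array. Signal near or below the array median limits Hpgds, Ltc4s and Alox15.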
